A study of Homo sapiens with 30 samples.

Results

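The transcripts described here encode 10 surface proteins of myeloma cells that antibodies or CAR-T cells (T cells carrying a chimeric antigen receptor) are directed at, or that mark plasma cells: TNFRSF17 (BCMA), GPRC5D, SLAMF7, LY9, SDC1 (CD138), CD38, ITGB7, FCRL5, CD46 and CD47. They were chosen by symbol, and 10 of 10 were found in both deposited expression tables, which hold 16407 genes for the OPM2 line and 17286 for the Delta47 line. OPM2 and Delta47 are human myeloma cell lines in which FOXM1, a forkhead transcription factor of the late cell cycle, was targeted in exon 2 with Cas9 ribonucleoprotein. Each knockout group (KO1 and KO2 in each line) is 1 clone grown from a single cell. In OPM2 the KO1 clone was also transduced with a FOXM1c expression lentivirus (KO1R) or with the empty vector (KO1EV), and in Delta47 the KO2 clone was transduced with the FOXM1c lentivirus (KO2R). Cells given FOXM1c were sorted on GFP, and unedited, untransduced cells of each line (WT) served as the controls. Each group had 3 libraries, and 27 of the 30 libraries were used. The Delta47 empty-vector group was not analysed here, so KO2R was set against untransduced KO2, and the vector itself and FOXM1c cannot be told apart in that line. The labels do not say whether the 3 libraries of a group were separate cultures, and the p-values cover only the spread among these libraries, which may be technical.

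These proteins sit on the plasma membrane of plasma cells and of the myeloma cells derived from them, and they have different jobs there. BCMA binds the survival factors APRIL and BAFF, syndecan-1 (SDC1) binds growth factors through heparan sulfate, CD38 is an NAD-consuming ectoenzyme, and SLAMF7 and LY9 are receptors of the SLAM family. The density of a target on the cell bears on how well an antibody or CAR-T cell engages it, but only RNA was measured in these libraries. In bulk RNA, fewer cells with a transcript and less transcript per cell cannot be told apart.

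FOXM1 itself was checked first. In OPM2 it averaged 277.5 ± 14.4 FPKM (fragments per kilobase of transcript, scaled to library size) in KO1R, 106.7 ± 1.85 in KO1EV, 62.1 ± 6.69 in KO2, 92.1 ± 1.08 in KO1 and 176 ± 0.804 in WT (SD, n = 3 each). In Delta47 the authors' expression value, whose unit the table does not name, was 99.4 ± 4.37 in KO2R, 46.2 ± 0.883 in KO2, 47.9 ± 1.85 in KO1 and 88.9 ± 1.88 in WT (SD, n = 3 each). The knockout, WT and FOXM1c groups followed their labels in every library. In Delta47 the clones overlapped (46.1 to 49.8 in KO1 and 45.4 to 47.1 in KO2), so FOXM1 cannot tell their labels apart. The transcript was lowered in the clones but not lost, and the submitters checked the clones by Western blot and sequencing. All 16 listed plasma cell regulators and secretory genes reached a value of 1 in both lines, and the summed markers of T and NK cells, of myeloid cells and of stromal or endothelial cells stayed at or below 2.28 in every library. Summed B cell markers differed between groups. In OPM2 they lay between 9.27 and 13.1 in KO1R, KO1EV and KO1, and between 5.51 and 6.49 in KO2 and WT. In Delta47 they lay between 59 and 74.7 in KO2R, KO2 and KO1, and between 39.8 and 43.9 in WT. Most of the Delta47 sum came from 1 gene, CD79B, which averaged 65.5 in KO2R, 48.05 in KO2, 56.0 in KO1 and 32.3 in WT. Only 3 of the 8 B cell genes in the Delta47 table, and 2 of 8 in OPM2, reached 1 in any library. The sums therefore do not measure B cell content. The part of these genes in the results on the targets was not tested. Total values per library were 510776 to 566016 in OPM2 and 534185 to 633778 in Delta47. No counts were used, so the sequencing depth behind each value is unknown.

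In OPM2, replicate 3 of KO2 and replicate 3 of KO1EV stood apart from the other libraries of their groups. Replicate 3 of KO2 was at least 0.5 (log2) away from the average of its 2 companion libraries at 30.11% of tested genes, and replicate 3 of KO1EV at 5.26%. KO2 replicates 1 and 2, whose companions include replicate 3, had 6.88% and 6.72%, more than KO1EV replicate 3. All other OPM2 libraries had at most 0.98%. Replicate 3 of KO2 and replicate 3 of KO1EV were low for several of the targets. Measured the same way, KO2 replicate 3 was lower by a log2 difference of −1.76 for LY9, −1.09 for SLAMF7, −0.76 for TNFRSF17, −0.62 for GPRC5D and −0.60 for CD38, and ITGB7 was higher by 0.34. KO1EV replicate 3 was lower by −0.88 for LY9, −0.51 for TNFRSF17 and −0.37 for SLAMF7. One fit over all OPM2 libraries estimated the spread, so these libraries widened the standard errors of all OPM2 comparisons. The OPM2 results are therefore given with both libraries and again without them. They were left out because of their values in these data, which narrows the spread that the p-values without them rest on. KO2 and KO1EV then hold 2 libraries each.

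**Figure D1:**
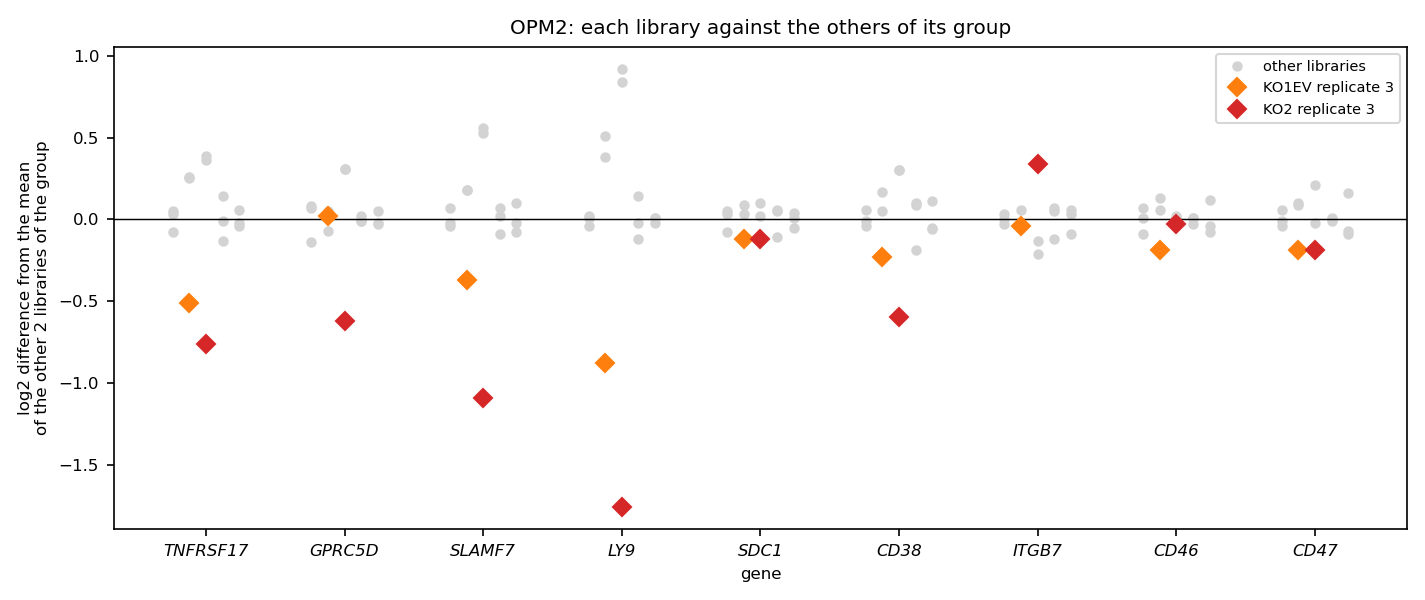
Difference of each OPM2 library from the average of its 2 companion libraries (y axis, log2) for the 9 tested targets (x axis), with 1 point per library. KO2 replicate 3 (red) lies lowest for LY9 (−1.76) and SLAMF7 (−1.09) and highest for ITGB7 (0.34), and KO1EV replicate 3 (orange) is low for LY9 (−0.88).

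The clones of the lines did not share one pattern over the targets. Calls rest on limma's test with p-values adjusted over all tested genes and a limit of 0.05. In OPM2, 9 of the 10 targets passed the filter on low values. Of these, 2 were called in KO1 against WT (1 higher, 1 lower), where 21.2% of all tested genes were called (14.5% higher, 6.72% lower). In KO2 against WT 4 were called (2 higher, 2 lower), where 14.4% of all were (6.54% higher, 7.82% lower). In Delta47, 8 of 10 passed the filter. There 7 were called in KO1 against WT (3 higher, 4 lower) beside 52.6% of all genes (28.9% higher, 23.7% lower), and 8 in KO2 against WT (4 higher, 4 lower) beside 43.6% (28.4% higher, 15.2% lower). Counted by libraries that do not overlap, 9 of 9 tested targets were apart in OPM2 KO1 against WT (7 lower, 2 higher), beside 60.7% of all tested genes, and 5 in KO2 against WT (3 lower, 2 higher) beside 28.5%. In Delta47, 7 of 8 were apart in KO1 against WT (4 lower, 3 higher) beside 59.5%, and 8 in KO2 against WT (4 lower, 4 higher) beside 53.1%. The median log2 change of the targets tested was −0.29 in OPM2 KO1 and −0.13 in OPM2 KO2, beside 0.07 and 0.02 over all genes. In Delta47 it was −0.32 in KO2 and −0.06 in KO1, beside 0.05 and 0.02. Both clones of a line were set against the same WT libraries. Without the 2 OPM2 libraries that stood apart, 9 of 9 were called in KO1 against WT (2 higher, 7 lower) and 6 in KO2 against WT (4 higher, 2 lower), but the share over all genes in that fit was also higher, at 58.9% in KO1 and 41.2% in KO2.

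**Figure D2:**
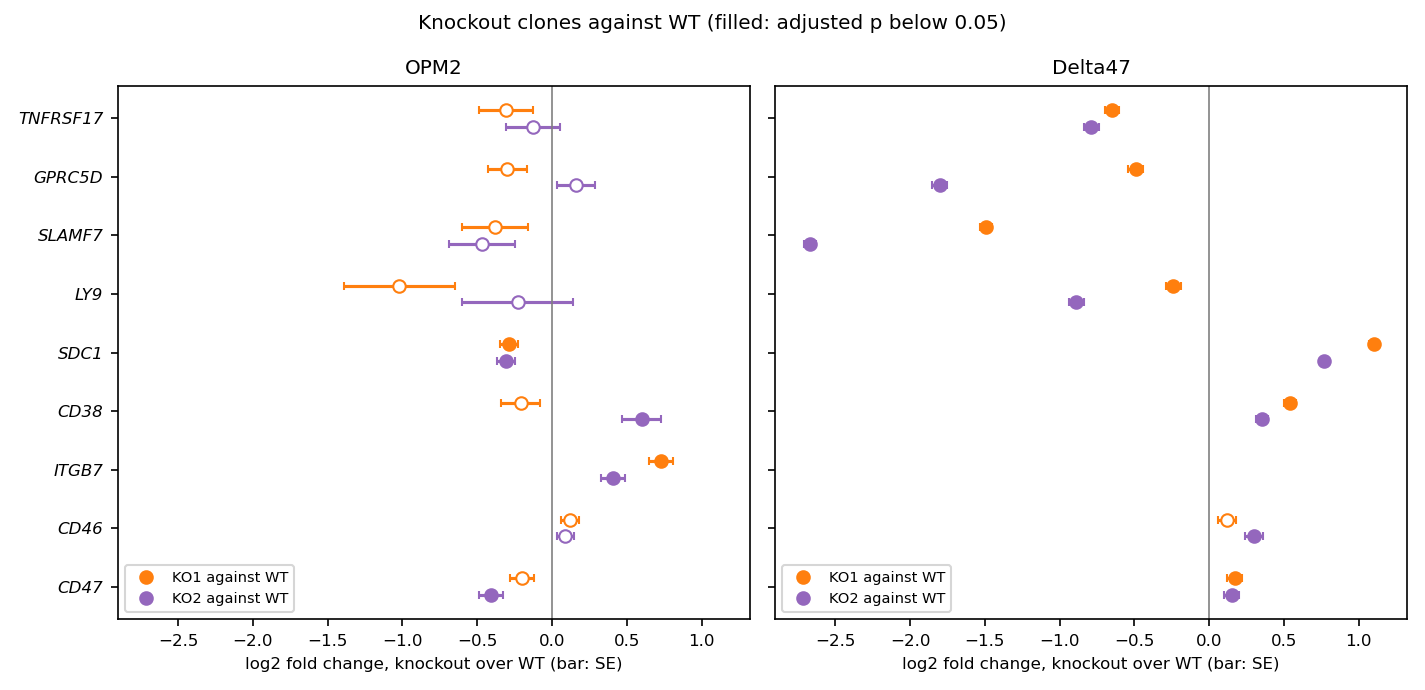
Log2 fold change of each tested target in KO1 (orange) and KO2 (purple) over WT, with the standard error of the fit (bars), in OPM2 (left) and Delta47 (right). SLAMF7 in Delta47 lies farthest below 0 (−1.49 and −2.67), and SDC1 lies below 0 in both OPM2 clones (−0.29 and −0.31) and above 0 in both Delta47 clones (1.10 and 0.77).

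The levels in unedited cells set the frame for these changes. In OPM2 WT, where FPKM allows genes to be compared per length, ITGB7 was highest at 683 ± 24.7 FPKM (SD, n = 3). It was followed by SLAMF7 at 442 ± 18.7, TNFRSF17 at 343 ± 8.16, SDC1 at 221 ± 4.91, GPRC5D at 157 ± 3.29, CD46 at 58.1 ± 2.89 and LY9 at 40.4 ± 0.361 FPKM. CD47 (10.8 to 12.2) and CD38 (10.4 to 11.3) overlapped, and FCRL5 was lowest at 0.28 to 0.42. No other neighbours in this order overlapped. In Delta47 WT the order was SDC1 at 171 ± 5.94, TNFRSF17 at 117 ± 5.46, SLAMF7 at 96.6 ± 1.21, GPRC5D at 70.7 ± 1.71, CD38 at 53.1 ± 1.54, CD46 at 27.8 ± 1.67, LY9 at 18.3 ± 0.398 and CD47 at 12.05 ± 0.486 in the authors' expression value, with no overlap between neighbours. ITGB7 (0.71 to 0.98) and FCRL5 (0.11 to 0.14) were near 0 in that line. The ratio of Delta47 to OPM2 WT values changed little with transcript length over 6500 genes (slope −0.086 per doubling), so the Delta47 values were read as values per length. The 2 tables were normalized separately, and no test was run between them.

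TNFRSF17 encodes BCMA, the receptor for APRIL and BAFF that approved antibody and CAR-T products bind. In Delta47 it was lower in both clones than in WT, and KO2R lay between KO2 and WT. Its expression value was 92.5, 83.0 and 92.5 in KO2R, 66.4, 65.8 and 69.7 in KO2, 73.7, 74.8 and 74.8 in KO1, and 122, 111 and 119 in WT. No library of a clone or of KO2R reached the lowest WT library. The log2 change was −0.79 ± 0.05 in KO2 and −0.65 ± 0.05 in KO1 against WT (SE, adjusted p = 5.55e-10 and 7.3e-09), and 0.40 ± 0.05 in KO2R against KO2 (adjusted p = 1.14e-06). With the trend over transcript length removed, the last value was 0.16 (adjusted p = 0.00698). In OPM2 it had 368, 363 and 346 FPKM in KO1R, 314, 311 and 219 in KO1EV, 375, 370 and 220 in KO2, 261, 277 and 296 in KO1, and 353, 341 and 337 in WT. All KO1 libraries lay below all WT libraries. Of the KO2 libraries, 2 lay above all WT libraries and replicate 3 lay far below them. The change was −0.31 ± 0.18 in KO1 against WT (adjusted p = 0.214), and −0.31 with an adjusted p of 2.16e-05 without the 2 libraries. In KO2 it was −0.13 ± 0.18 with all libraries (adjusted p = 0.673) and 0.12 without the 2 (adjusted p = 0.058), so its sign rests on KO2 replicate 3. FOXM1c gave 0.37 ± 0.18 in KO1R against KO1EV (adjusted p = 0.229), or 0.20 without the 2 libraries (adjusted p = 0.0068). The ligands APRIL (TNFSF13) and BAFF (TNFSF13B) averaged at most 0.343 in any group of either line, and the related receptor TNFRSF13B at most 0.0433.

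BCMA is shed from the membrane by gamma-secretase, so the subunits of that protease were listed with it. Of the 11 genes of the BCMA axis, 8 were tested in Delta47, where 2 were called lower and 5 higher in KO1 against WT, and 3 lower and 3 higher in KO2 against WT. Over all tested genes, 23.7% were lower and 28.9% higher in KO1, and 15.2% lower and 28.4% higher in KO2. NCSTN, which encodes the subunit nicastrin, fell by 0.64 in KO2 and by 0.58 in KO1 (log2, adjusted p = 2.27e-09 and 8.86e-09). PSEN2, which encodes a catalytic subunit, rose in KO1 (0.34, adjusted p = 7.84e-06), as did APH1B (0.56, adjusted p = 0.000174). In OPM2, 6 of the 11 were tested. APH1A, which encodes another subunit, was called lower in KO1 against WT (−0.24, adjusted p = 0.013). In KO2 against WT limma called 0 of 6, with 0 of 6 at an unadjusted p below 0.05, beside 14.4% of all tested genes called.

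GPRC5D encodes an orphan G protein-coupled receptor that bispecific antibodies target. In Delta47 its expression value was 25.4, 25.2 and 24.2 in KO2R, 20.4, 18.3 and 19.99 in KO2, 51.3, 47.7 and 50.8 in KO1, and 68.7, 71.7 and 71.6 in WT. The groups did not overlap, and KO2 was far lower than KO1. It fell by 1.80 in KO2 and by 0.49 in KO1 against WT (log2, SE 0.05 each, adjusted p = 2.08e-14 and 1.87e-07). KO2 was lower than KO1 by a log2 difference of −1.31 ± 0.05 (adjusted p = 4.4e-12). KO2R was 0.33 ± 0.05 above KO2 (adjusted p = 8.72e-06), or 0.11 with the length trend removed (adjusted p = 0.0409), and stayed 2.84-fold below WT. OPM2 cells held 114, 114 and 103 FPKM in KO1R, 119, 112 and 117 in KO1EV, 202, 202 and 132 in KO2, 127, 127 and 129 in KO1, and 161, 155 and 154 in WT. KO1 and its vector groups lay below WT, and 2 of the 3 KO2 libraries lay above it. The change against WT was 0.16 ± 0.13 in KO2 and −0.30 ± 0.13 in KO1 (adjusted p = 0.441 and 0.104), or 0.37 and −0.30 without the 2 libraries (adjusted p = 1.36e-05 and 2.04e-05). KO2 was 0.46 ± 0.13 above KO1 (adjusted p = 0.0143), and 0.66 without the 2 libraries (adjusted p = 7.11e-09). That call was lost without KO2 replicate 1 or 2 (0.36 in both fits, adjusted p = 0.0706 and 0.0695). KO1R against WT was −0.50 ± 0.13 (adjusted p = 0.0159), a call lost without KO1R replicate 3 (adjusted p = 0.0616), WT replicate 1 (0.0551) or WT replicate 2 (0.0503), and KO1R against KO1EV was −0.07 (adjusted p = 0.742). The related receptor GPRC5A averaged at most 0.883 in Delta47 and at most 0.00667 in OPM2.

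SLAMF7, the self-binding SLAM receptor that elotuzumab targets, showed the largest change among the tested targets, in Delta47 KO2. In Delta47 its expression value was 30.5, 32.5 and 33.0 in KO2R, 14.3, 14.7 and 14.0 in KO2, 34.1, 32.9 and 34.2 in KO1, and 95.2, 97.5 and 97.1 in WT. KO2 was 6.76-fold and KO1 was 2.87-fold below WT, with log2 changes of −2.67 ± 0.04 and −1.49 ± 0.04 (adjusted p = 2.73e-17 and 4.09e-14). KO2R was 1.11 ± 0.04 above KO2 (adjusted p = 6.78e-12) and remained 3.02-fold below WT. Removing the length trend left these values at −2.74, −1.54 and 1.15. OPM2 cells had 524, 498 and 503 FPKM in KO1R, 370, 369 and 287 in KO1EV, 415, 409 and 193 in KO2, 326, 341 and 350 in KO1, and 463, 427 and 437 in WT. All KO1 and KO2 libraries lay below all WT libraries, and all KO1R libraries lay above every other group. The changes were −0.47 ± 0.22 in KO2 and −0.38 ± 0.22 in KO1 against WT, and 0.58 ± 0.22 in KO1R against KO1EV (adjusted p = 0.184, 0.211 and 0.126). Without the 2 libraries they were −0.10, −0.38 and 0.46 (adjusted p = 0.0753, 9.36e-07 and 2.08e-06).

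LY9 (CD229) is another SLAM receptor, encoded near SLAMF7, and has been tried as a CAR-T target. In Delta47 its expression value was 10.8, 11.5 and 11.2 in KO2R, 9.69, 9.02 and 9.47 in KO2, 14.9, 14.9 and 16.4 in KO1, and 17.9, 18.6 and 18.5 in WT. Again the groups did not overlap. It fell by 0.89 in KO2 and by 0.24 in KO1 (log2, SE 0.05 each, adjusted p = 4.08e-10 and 0.000838), and rose by 0.23 in KO2R over KO2 (adjusted p = 0.000801). In OPM2 it had 19.3, 19.4 and 18.8 FPKM in KO1R, 19.9, 18.7 and 10.0 in KO1EV, 53.1, 51.2 and 14.7 in KO2, 18.3, 19.1 and 20.7 in KO1, and 40.6, 39.97 and 40.6 in WT. Every KO1 library lay below every WT library, the KO1 mean was 2.08-fold below the WT mean and KO1R was no closer to WT, while KO2 spread from below KO1 to above WT. The change in KO1 was −1.02 ± 0.37 (adjusted p = 0.0628), and −1.02 with an adjusted p of 1.46e-10 without the 2 libraries. It was also called without KO1EV replicate 3 or any 1 of the KO2 libraries (adjusted p = 0.000194 to 0.0493), and with the replicate number added as a block (adjusted p = 0.0382). KO2 against WT was −0.23 ± 0.37 with all libraries (adjusted p = 0.733) and 0.36 without the 2 (adjusted p = 4.96e-05), so its direction rests on KO2 replicate 3. KO1R differed from KO1EV by 0.29 with all libraries (adjusted p = 0.647) and by −0.01 without the 2 (adjusted p = 0.918).

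CD48, another SLAM family gene of the same stretch, was lower in both Delta47 clones than in WT and higher in KO2R than in KO2, as SLAMF7 was. It averaged 317 ± 6.01 in KO2R, 163 ± 2.05 in KO2, 261 ± 7.61 in KO1 and 389 ± 9.91 in WT (SD, n = 3). Its log2 change was −1.25 in KO2 and −0.57 in KO1 against WT, and 0.96 in KO2R against KO2 (adjusted p = 2.66e-14, 5.92e-10 and 3.84e-12). Of the 12 SLAM family and adaptor genes, 4 were tested in Delta47, and 3 were called lower and 0 higher in KO2 against WT. In KO1 against WT 4 were called lower and 0 higher. Over all genes 15.2% were lower in KO2 and 23.7% in KO1, and SLAMF7, LY9 and CD48 lie in a stretch of chromosome 1 where most tested genes were lower. In KO2R against KO2, 3 were called higher and 1 lower, the kinase gene FYN (−0.52, adjusted p = 3.77e-08). All tested genes had 25.2% higher and 36.8% lower there. In OPM2 limma called 0 of 4 tested in either clone, with 1 in KO2 and 2 in KO1 at an unadjusted p below 0.05. The share called over all tested genes was 14.4% in KO2 and 21.2% in KO1. SLAMF6 averaged at most 0.0167 in both lines.

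The genes whose pattern over the 12 Delta47 libraries was most like that of SLAMF7 were UFC1 (Pearson r = 0.992), PRUNE1 (0.991) and FDPS (0.990). All 3 lie on chromosome 1, as SLAMF7 does, and the 12 libraries share 4 groups. This led to a look at the genes around SLAMF7 and LY9, chosen after these values were seen. Of the 40 tested genes nearest in RefSeq order (GRCh38.p14, 20 on each side, MRPL24 to UAP1), 37 were called lower and 0 higher in Delta47 KO2 against WT, and 38 lower and 1 higher in KO1 against WT. Their median log2 change was −0.65 in KO2 and −0.53 in KO1, beside 0.01 and −0.06 for the rest of the chromosome. In KO2R against KO2, 12 were lower and 10 higher, with a median of −0.05. SLAMF7 fell by more than the median neighbour in both clones, and its log2 change in KO2R (1.11) stood beside that median of −0.05. It was not alone in this. The neighbour C1orf226 had −1.52 in KO1 and −1.55 in KO2, beside −1.49 and −2.67 for SLAMF7, and CD48 had 0.96 in KO2R against KO2. LY9 fell by less than the median neighbour in KO1 (0.24) and by more in KO2 (0.89). In OPM2 the 40 nearest tested genes (ISG20L2 to C1orf226) had medians of −0.06 in KO2 and 0.07 in KO1, with 2 and 1 called lower. NCSTN and CD48 are among these neighbours. CD46, farther along chromosome 1, had neighbours with medians of 0.01 in KO2 and −0.12 in KO1. Whether the number of copies of this stretch differs between the Delta47 clones and WT was not tested.

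**Figure D3:**
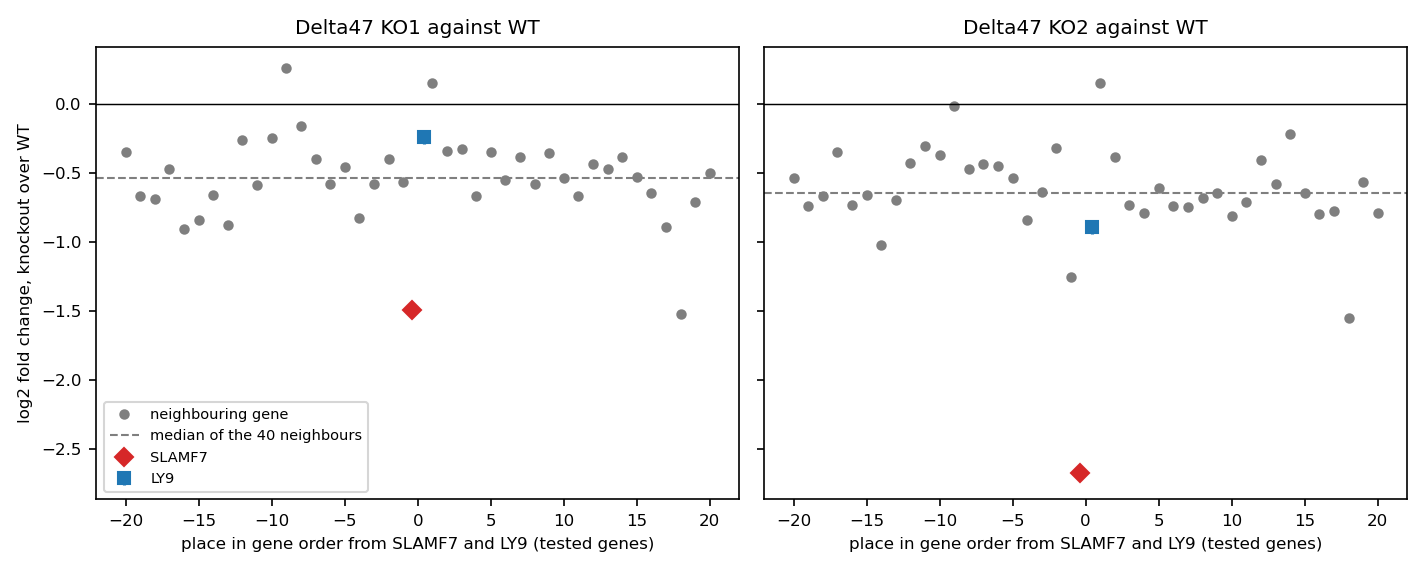
Log2 fold change of the 40 tested genes nearest to SLAMF7 and LY9 on chromosome 1 (grey), of SLAMF7 (red) and of LY9 (blue), in Delta47 KO1 (left) and KO2 (right) over WT; the x axis is the place in gene order and the dashed line the median of the neighbours (−0.53 and −0.65). Most neighbours lie below 0, and SLAMF7 lies far below their median in both clones (−1.49 and −2.67). The neighbour C1orf226 lies at −1.52 in KO1 and −1.55 in KO2.

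SDC1 encodes syndecan-1 (CD138), the heparan sulfate proteoglycan by which plasma cells are sorted. It moved in opposite directions in the lines. The Delta47 value was 304, 316 and 302 in KO2R, 298, 290 and 287 in KO2, 362, 377 and 366 in KO1, and 164, 176 and 173 in WT. It rose by 0.77 ± 0.03 in KO2 and by 1.10 ± 0.03 in KO1 (log2, adjusted p = 1.66e-11 and 2.69e-13), and was not brought back in KO2R, which differed from KO2 by 0.08 ± 0.03 (adjusted p = 0.0604). That last difference was −0.16 under quantile scaling and 0.19 with the length trend removed, both called, and the call also arose without KO2R replicate 3 or WT replicate 1 (adjusted p = 0.0485 and 0.0414). OPM2 libraries had 301, 302 and 285 FPKM in KO1R, 265, 258 and 240 in KO1EV, 186, 180 and 168 in KO2, 171, 185 and 186 in KO1, and 215, 222 and 225 in WT. Both clones lay below WT and both vector groups above it. The log2 change was −0.31 ± 0.06 in KO2 and −0.29 ± 0.06 in KO1 against WT (adjusted p = 0.00369 and 0.00524). Fitted with WT alone, KO2 missed the limit (adjusted p = 0.091). With the empty vector alone it was already higher, by 0.49 ± 0.06 in KO1EV over KO1 (adjusted p = 0.00035), and KO1R was 0.22 ± 0.06 above KO1EV (adjusted p = 0.0428) and 0.42 ± 0.06 above WT (adjusted p = 0.000417). The step from KO1EV to KO1R lost its call in most fits that left out 1 library, without KO1EV replicate 3 among them (0.18, adjusted p = 0.147), with adjusted p up to 0.155 without KO1R replicate 2. With both libraries that stood apart left out it was 0.18 (adjusted p = 0.00748).

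Over the Delta47 libraries, the genes most like SDC1 were MDK (r = 0.995), ST6GALNAC4 (0.993) and PLTP (0.992). Among the 10 syndecan and heparan sulfate genes, 8 were tested in OPM2, of which 2 were called lower and 3 higher in KO1, and 4 lower and 0 higher in KO2. Over all tested genes, 6.72% were lower and 14.5% higher in KO1, and 7.82% lower and 6.54% higher in KO2. SDC2 rose in KO1 (0.59, adjusted p = 0.000225), and SDC3 had −0.63 in KO2 and 0.29 in KO1 (adjusted p = 4.19e-05 and 0.0101). EXT2, a polymerase of heparan sulfate, fell in both clones (−0.20 in KO2 and −0.25 in KO1, adjusted p = 0.0183 and 0.00435). In Delta47 EXT2 was higher in KO2 (0.30, adjusted p = 1.7e-05), and SDCBP, whose product syntenin binds syndecans, was lower in both clones (−0.22 in KO2 and −0.41 in KO1, adjusted p = 0.000541 and 6.44e-07).

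CD38 encodes the ectoenzyme bound by daratumumab and isatuximab. Delta47 libraries had values of 53.8, 53.5 and 58.1 in KO2R, 68.8, 68.5 and 66.9 in KO2, 77.5, 75.03 and 80.3 in KO1, and 54.8, 52.1 and 52.2 in WT. Both clones lay above WT, and KO2R overlapped WT. It rose by 0.35 ± 0.04 in KO2 and by 0.54 ± 0.04 in KO1 (adjusted p = 2.32e-06 and 1.45e-08). KO2R was −0.30 ± 0.04 against KO2 (adjusted p = 7.54e-06), or −0.15 with the length trend removed (adjusted p = 0.000983), and 0.05 ± 0.04 against WT (adjusted p = 0.236). The OPM2 levels were 11.7, 11.9 and 12.3 FPKM in KO1R, 12.1, 11.4 and 9.88 in KO1EV, 19.4, 19.3 and 12.4 in KO2, 8.25, 9.54 and 9.5 in KO1, and 11.3, 10.4 and 10.4 in WT. KO2 lay above WT and KO1 below it, each in 3 of 3 libraries. The change was 0.60 ± 0.13 in KO2 (adjusted p = 0.00888) and −0.21 ± 0.13 in KO1 (adjusted p = 0.249) against WT, and 0.81 ± 0.13 in KO2 against KO1 (adjusted p = 0.00055). The call in KO2 against WT was lost when those groups were fitted alone (adjusted p = 0.147). Without the 2 libraries these were 0.80, −0.21 and 1.01 (adjusted p = 1.1e-07, 0.00474 and 2.4e-09).

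Genes of NAD and adenosine metabolism were listed with CD38. PECAM1, the ligand of CD38, was higher in Delta47 (2.82 in KO2 and 0.94 in KO1, adjusted p = 4.81e-15 and 5.57e-09) and in OPM2 KO2 (0.35, adjusted p = 0.00535). NAMPT, the NAD salvage enzyme, was lower in all 4 clones: −0.82 and −0.63 in Delta47 KO2 and KO1 (adjusted p = 4.81e-10 and 1.25e-08), and −1.02 and −0.89 in OPM2 KO2 and KO1 (adjusted p = 0.000345 and 0.000945). Of the 7 genes of this list, 4 were tested in Delta47 (3 called higher and 1 lower in each clone) and 5 in OPM2 (2 higher and 1 lower in KO2, 0 higher and 1 lower in KO1). The share called over all tested genes was 43.6% in KO2 and 52.6% in KO1 of Delta47. In OPM2 it was 14.4% in KO2 and 21.2% in KO1. BST1, the paralog of CD38, averaged at most 0.123 in any group.

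ITGB7 encodes integrin beta 7, whose active form on myeloma cells has been proposed as a CAR-T target. In OPM2 it was higher in both clones and back at the WT level with FOXM1c. It had 688, 698 and 679 FPKM in KO1R, 1086, 1045 and 1040 in KO1EV, 856, 826 and 1067 in KO2, 1072, 1158 and 1167 in KO1, and 656, 691 and 703 in WT. Every library of both clones and of KO1EV lay above every library of WT and of KO1R, and KO1R and WT overlapped. The log2 change was 0.41 ± 0.08 in KO2 and 0.73 ± 0.08 in KO1 against WT (adjusted p = 0.0039 and 4.11e-05). The KO2 call was lost when KO2 and WT were fitted alone (adjusted p = 0.116). The empty vector changed it by −0.10 ± 0.08 (adjusted p = 0.602), FOXM1c by −0.62 ± 0.08 over the empty vector (adjusted p = 0.000402), and KO1R differed from WT by 0.01 (95% interval −0.15 to 0.17). Without the 2 libraries the clone values were 0.30 and 0.73 and the FOXM1c value −0.63, all called. ITGB7 ranked between 74 and 123 among all genes in every OPM2 library. In Delta47 it reached at most 0.98 and was not tested.

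ITGA4 encodes the alpha 4 chain that pairs with beta 7. In OPM2 it averaged 31.3 ± 1.37 FPKM in KO1R, 32.4 ± 0.777 in KO1EV, 33.7 ± 1.51 in KO2, 29.9 ± 1.78 in KO1 and 42.7 ± 2 in WT (SD, n = 3). It fell in both clones (−0.33 in KO2 and −0.50 in KO1, adjusted p = 0.00304 and 0.000122), opposite to ITGB7, and had −0.05 in KO1R against KO1EV (adjusted p = 0.663). ITGAE, the other alpha partner, averaged at most 0.917 FPKM in OPM2. ITGA4 was also lower in Delta47 (−0.37 in KO2 and −0.46 in KO1, adjusted p = 0.000323 and 2.96e-05). ITGAL, the leukocyte integrin alpha L gene, rose in OPM2 KO1 (1.25, adjusted p = 2.76e-05). Of the 8 integrin genes listed, 6 were tested in OPM2, with 2 called higher and 2 lower in KO1, and 1 higher and 2 lower in KO2. Over all tested genes, 14.5% were higher and 6.72% lower in KO1, and 6.54% higher and 7.82% lower in KO2.

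RefSeq gives promoter windows (250 bases before to 50 after a start, GRCh38.p14) for 7 of the 10 targets, 9 windows in all. SLAMF7, LY9 and TNFRSF17 had no window and were not searched. The windows of CD46 overlap each other. All 9 windows were searched on both strands for TTTGAA (the cell cycle homology region bound by complexes that FOXM1 joins), GTAAACA (a forkhead motif) and ACGTG (the core of the XBP1 and ATF6 elements). These letters occur in 15.2%, 3.42% and 21.4% of the 35116 windows of this length. One match was found in the 9 windows, ACGTG in that of CD47. The window of ITGB7 is shown because its transcript was higher in the OPM2 clones and lower again with FOXM1c, and that of CD47 because it held the match, which is set in capitals.
ITGB7, chr12:53207202-53207501, minus strand: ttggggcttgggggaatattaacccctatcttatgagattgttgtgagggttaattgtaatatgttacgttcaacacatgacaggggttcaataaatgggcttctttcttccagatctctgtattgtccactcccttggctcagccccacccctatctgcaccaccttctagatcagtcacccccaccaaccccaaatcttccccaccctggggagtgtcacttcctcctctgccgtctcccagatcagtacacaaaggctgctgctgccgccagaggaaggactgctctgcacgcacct
CD47, chr3:108090982-108091281, minus strand: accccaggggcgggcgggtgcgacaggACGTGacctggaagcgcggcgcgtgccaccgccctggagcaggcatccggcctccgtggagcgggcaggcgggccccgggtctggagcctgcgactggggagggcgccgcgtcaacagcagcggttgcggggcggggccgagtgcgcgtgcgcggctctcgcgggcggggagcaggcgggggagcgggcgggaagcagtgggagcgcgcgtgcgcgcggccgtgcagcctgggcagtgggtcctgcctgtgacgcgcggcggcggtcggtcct

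CD47 encodes the signal by which cells hold off phagocytosis through SIRPA on macrophages. In OPM2 it had 9.63, 10.1 and 9.77 FPKM in KO1R, 11.6, 11.6 and 10.1 in KO1EV, 8.19, 9.22 and 7.49 in KO2, 9.73, 9.75 and 9.67 in KO1, and 12.2, 10.8 and 10.9 in WT. All libraries of both clones lay below all WT libraries. It was lower by −0.41 ± 0.08 in KO2 (adjusted p = 0.00323) and by −0.20 ± 0.08 in KO1 (adjusted p = 0.0857), or −0.34 and −0.20 without the 2 libraries (adjusted p = 0.000394 and 0.00674). With KO2 and WT fitted alone, the KO2 value was not called (adjusted p = 0.095). The 40 tested genes around CD47 on chromosome 3 had a median of −0.13 in KO2 and −0.14 in KO1 against WT, with 32 and 29 of 40 below 0. The rest of the chromosome had medians of −0.01 in KO2 and 0.04 in KO1. Whether the place of CD47 bears on its change was not tested. In Delta47 its expression value was 18.0, 17.0 and 18.6 in KO2R, 13.0, 13.8 and 13.7 in KO2, 13.6, 13.0 and 14.3 in KO1, and 12.6, 11.7 and 11.8 in WT. Here the clones lay slightly above WT (0.15 ± 0.05 in KO2 and 0.17 ± 0.05 in KO1, adjusted p = 0.0236 and 0.012), and KO2R rose by 0.38 ± 0.05 over KO2 (adjusted p = 7.68e-06). The KO2 value lost its call with the length trend removed (0.10, adjusted p = 0.109) and without KO2 replicate 2 or 3 or WT replicate 2 or 3 (adjusted p up to 0.0825), and the KO1 value without KO1 replicate 3 (0.13, adjusted p = 0.0612). CALR, whose product calreticulin is a signal for phagocytosis when exposed at the surface, rose in both Delta47 clones (0.41 in KO2 and 0.35 in KO1, adjusted p = 5.96e-09 and 3.73e-08). In OPM2 it had 0.40 in KO2 and −0.25 in KO1 (adjusted p = 0.266 and 0.406).

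CD46, a cofactor that limits complement on host cells, varied least among the tested targets, with group means spanning 0.15 in OPM2 and 0.52 in Delta47 (log2). The OPM2 groups had 65.0, 60.3 and 63.1 FPKM in KO1R, 66.4, 68.4 and 59.0 in KO1EV, 62.1, 61.9 and 60.9 in KO2, 62.4, 63.7 and 63.7 in KO1, and 61.4, 56.0 and 56.8 in WT. The changes against WT were 0.09 ± 0.06 in KO2 and 0.12 ± 0.06 in KO1 (adjusted p = 0.419 and 0.173), with a 95% interval of −0.04 to 0.21 in KO2. Without the 2 libraries KO1 was called (0.12, adjusted p = 0.0179). Delta47 values were 37.7, 39.95 and 43.95 in KO2R, 34.1, 33.7 and 35.3 in KO2, 30, 29 and 31.9 in KO1, and 29.8, 26.6 and 27.1 in WT. It was higher in KO2 against WT (0.30 ± 0.06, adjusted p = 0.000432) and higher again in KO2R against KO2 (0.23 ± 0.06, adjusted p = 0.00212), and KO1 overlapped WT. KO1 against WT was 0.12 ± 0.06 (adjusted p = 0.0845), called without KO2R replicate 3 or WT replicate 1 (adjusted p = 0.0465 and 0.0271). CD59, which blocks the membrane attack complex, was lower in Delta47 KO2 (−0.41, adjusted p = 7.03e-07) and KO1 (−0.24, adjusted p = 0.000149) and in OPM2 KO2 (−0.29, adjusted p = 0.0207). It rose in Delta47 KO2R over KO2 (0.41, adjusted p = 3.69e-07). CD55, which speeds the decay of complement convertases, was not called in any clone against WT.

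FCRL5, an Fc receptor-like protein of B cells and plasma cells, was close to 0 throughout and was not tested. OPM2 levels were 0.14, 0.20 and 0.12 FPKM in KO1R, 0.20, 0.21 and 0.07 in KO1EV, 0.13, 0.18 and 0.05 in KO2, 0.04, 0.12 and 0.11 in KO1, and 0.42, 0.37 and 0.28 in WT. In Delta47 it was listed at 0 to 0.01 in KO2R, 0 to 0.01 in KO2, 0 to 0.02 in KO1, and 0.11 to 0.14 in WT. These levels failed the filter and are too low for the groups to be ordered or a fold change to be given. FCRL5 lies in the stretch of chromosome 1 described above, and 37 of its 40 tested neighbours were called lower in each Delta47 clone. Over all tested genes, 15.2% were lower in KO2 and 23.7% in KO1. These neighbours overlap those of SLAMF7 and LY9, so the count is not a separate observation. Whether the stretch bears on the FCRL5 values was not tested.

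**Figure D4:**
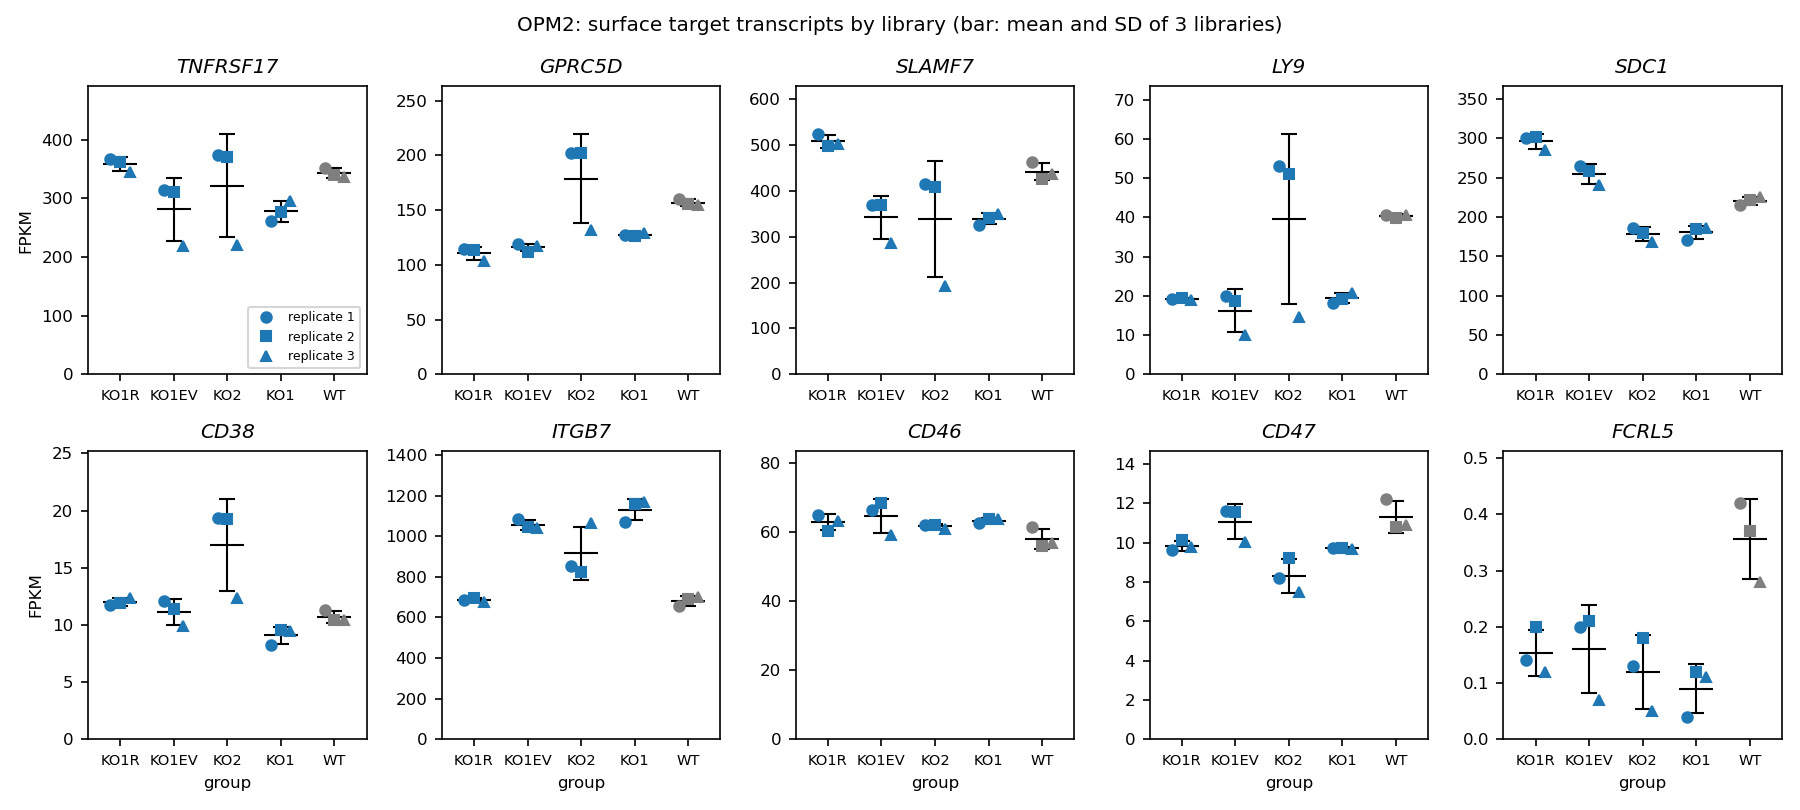
Levels of the 10 targets in each OPM2 library (y axes, FPKM, from 0) by group (x axes), with 1 marker shape per replicate number and the mean and SD of 3 libraries in black. ITGB7 is high in KO1EV, KO2 and KO1 and near the WT mean of 683 in KO1R, and SDC1 is highest in KO1R (285 to 302).

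**Figure D5:**
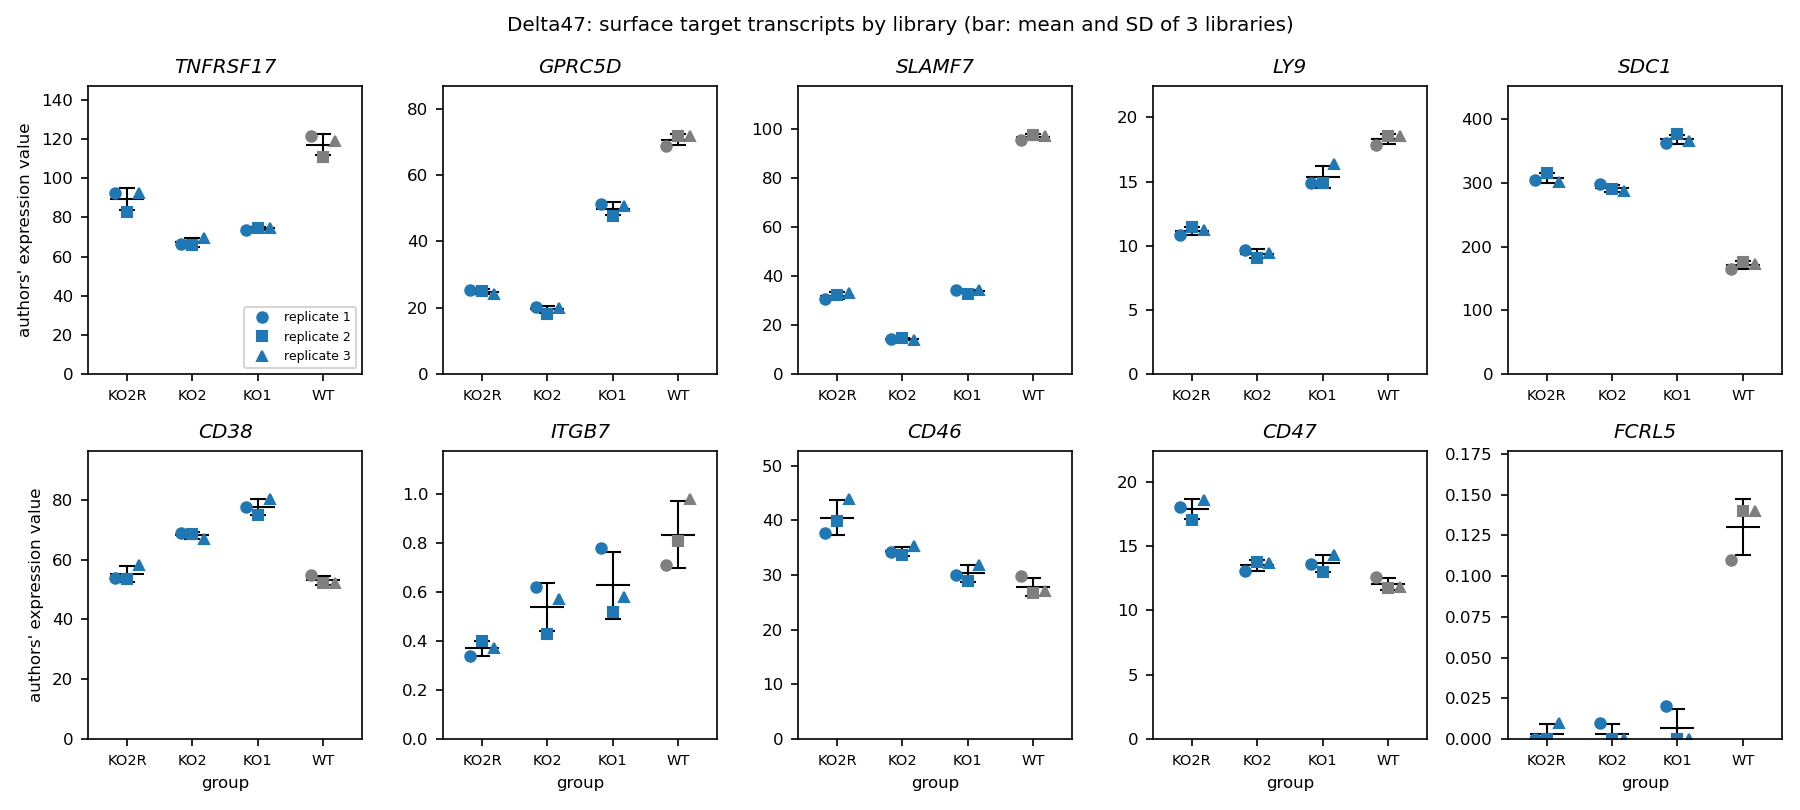
Levels of the 10 targets in each Delta47 library (y axes, the authors' expression value, from 0) by group (x axes), with 1 marker shape per replicate number and the mean and SD of 3 libraries in black. SLAMF7 and GPRC5D are lowest in KO2 (14.0 to 14.7 and 18.3 to 20.4), and SDC1 is high in KO2R, KO2 and KO1.

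FOXM1c was set against the empty vector only in OPM2. There, 2 of 9 tested targets were called in KO1R against KO1EV (SDC1 higher and ITGB7 lower) beside 8.23% of all genes (3.10% higher, 5.12% lower), and 1 in KO1EV against KO1 (SDC1, higher) beside 4.95% (1.78% higher, 3.17% lower). Against untransduced KO1 and against WT, 2 each were called in KO1R (1 higher and 1 lower each). All genes had 21.7% called against KO1 (6.26% higher, 15.4% lower) and 14.7% against WT (6.38% higher, 8.29% lower). In Delta47, 7 of 8 were called in KO2R against KO2 (6 higher, 1 lower) beside 62.0% (25.2% higher, 36.8% lower), and 7 in KO2R against WT (3 higher, 4 lower) beside 69.0% (34.2% higher, 34.9% lower). Libraries did not overlap for 4 of 9 tested targets in OPM2 KO1R against KO1EV beside 42.8% of tested genes, for 4 in KO1EV against KO1 beside 29.1%, for 6 in KO1R against KO1 beside 57.9%, and for 6 in KO1R against WT beside 50.9%. In Delta47 the count was 8 of 8 in KO2R against KO2 beside 65.6%, and 7 in KO2R against WT beside 69.3%. The Delta47 comparison of KO2R with KO2 moved with transcript length over all genes (Spearman rho −0.543 over 10899 genes). So did those of KO2R with WT (−0.475), KO2 with KO1 (0.436) and KO1 with WT (−0.392), while KO2 with WT had −0.065. In OPM2 rho lay between −0.323 (KO1EV against KO1) and 0.044 (KO1 against WT). The transcripts of TNFRSF17 (994 bases) and GPRC5D (1038 bases) are the shortest of the 10. The clones differed from each other as well, with 3 of 9 targets called in OPM2 KO2 against KO1 (2 higher, 1 lower) beside 29.9% (10.8% higher, 19.1% lower), and 7 of 8 in Delta47 KO2 against KO1 (1 higher, 6 lower) beside 42.1% (24.9% higher, 17.2% lower). Libraries were apart for 5 targets in OPM2 KO2 against KO1 beside 34.7%, and for 7 in Delta47 KO2 against KO1 beside 54.8%. Without the 2 libraries that stood apart, 5 of 9 targets were called in OPM2 KO1R against KO1EV (3 higher, 2 lower) beside 26.4% of all genes, and 7 of 9 in KO2 against KO1 beside 67.7%.

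Other myeloma surface antigens were read beside the targets. NCAM1 (CD56) was lower in Delta47 (−2.01 in KO2 and −2.03 in KO1, adjusted p = 3.62e-12 and 5.41e-12) and in OPM2 KO2 (−1.35, adjusted p = 5.96e-08). LILRB4, an inhibitory receptor, was lower in Delta47 (−1.63 in KO2 and −0.41 in KO1, adjusted p = 1.18e-13 and 2.26e-06) and in OPM2 KO2 (−1.68, adjusted p = 0.000563). CD44, the hyaluronan receptor, was lower in OPM2 KO2 (−0.74, adjusted p = 0.000128) and higher in OPM2 KO1 (0.78, adjusted p = 7.5e-05). CD28 fell in OPM2 KO1 (−0.55, adjusted p = 4.57e-05) and was −0.63 in KO1R against KO1EV (adjusted p = 3.25e-05). It was the only listed antigen called lower in OPM2 KO1 against WT, so NCAM1 and LILRB4 were not called lower in that clone. Of the 20 antigens listed, 12 were tested in Delta47, with 7 called higher and 4 lower in KO2 and 4 higher and 6 lower in KO1, and 11 in OPM2, with 3 higher and 4 lower in KO2 and 3 higher and 1 lower in KO1. The antigens named above for Delta47 are all from those called lower, so they do not stand for the list. Over all genes 43.6% were called in KO2 and 52.6% in KO1 of Delta47, and 14.4% in KO2 and 21.2% in KO1 of OPM2. Of the 16 plasma cell regulators and secretory genes, 2 were called higher and 3 lower in OPM2 KO2, and 1 higher and 2 lower in OPM2 KO1. Over all OPM2 genes, 6.54% were higher and 7.82% lower in KO2, and 14.5% higher and 6.72% lower in KO1. The 16 went both ways in Delta47, with 4 called higher and 9 lower in KO2 and 7 higher and 7 lower in KO1. Over all Delta47 genes, 28.4% were higher and 15.2% lower in KO2, and 28.9% higher and 23.7% lower in KO1. MZB1, a chaperone of antibody secretion, was higher (0.32 in KO2 and 0.82 in KO1, adjusted p = 3.43e-05 and 5.12e-10), and PRDM1, which encodes the plasma cell regulator BLIMP1, had 0.18 in KO2 and −0.18 in KO1 (adjusted p = 0.0011 and 0.00125). IRF4, another regulator of plasma cell identity, was lower in Delta47 (−0.41 in KO2 and −0.40 in KO1, adjusted p = 6.87e-08 and 8.93e-08) and in OPM2 KO1 (−0.47, adjusted p = 0.0355). XBP1 was −0.16 in KO2 and −0.25 in KO1 of Delta47 (adjusted p = 0.000306 and 1.68e-06) and was not called in either OPM2 clone. Among genes of like pattern, LY9 in OPM2 lay closest to USP22 (r = 0.980 over 15 libraries), ME2 (0.975) and TUFT1 (0.975), and GPRC5D in Delta47 lay closest to LY9 (0.993 over 12 libraries), CACYBP (0.991) and APBB1IP (0.988).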

How the data were processed

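RNA-seq libraries of OPM2 and Delta47 cells were made from poly-A RNA and read as paired ends on a DNBSEQ instrument, per the labels' protocols. The human genome build was hg19, per the submitters' processing notes, while aligner and counter: not given in the sources used here. The deposited OPM2 values are FPKM, per the file headers. The deposited Delta47 table names no unit, and its values were treated as a signal (the authors' expression value). Columns named KOR were read as KO2R by the letter R, and 3 further Delta47 columns stayed unused, since the name they carry fits several samples.

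Values were taken as log2(value + 1), and a gene entered the test (10309 in OPM2, 11001 in Delta47) with values of at least 1 in 3 or more libraries. One limma-trend model per line was fitted over all groups (limma 3.58.1, R 4.3.3) with two-sided tests and Benjamini-Hochberg adjustment over all tested genes, and calls needed an adjusted p under 0.05. The fit was tested on simulated data. Fold changes are on the log2(value + 1) scale, which understates changes of low genes. Genes named beside the targets are list members called in a comparison, at most 4 by adjusted p, or known partners. Patterns were compared by Pearson r for targets whose group means span at least 1 (log2). Members, lists and tests were chosen with earlier results of these data known. The replicate numbers were not used to pair the libraries in the main fit. One gene of the listed partners is not reported here.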

Additional observations from a re-analysis of the deposited data

Results flagged for a closer look

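SDC1 and CD47 lay on opposite sides of WT in the lines, with no overlap between clone and WT libraries in either line. The log2 change of SDC1 was −0.31 in KO2 and −0.29 in KO1 of OPM2, and 0.77 in KO2 and 1.10 in KO1 of Delta47. That of CD47 was −0.41 and −0.20 in KO2 and KO1 of OPM2, and 0.15 and 0.17 in KO2 and KO1 of Delta47. For CD47 the OPM2 KO1 value did not pass limma's test (adjusted p = 0.0857), the Delta47 KO2 call was lost with the length trend removed (adjusted p = 0.109), quantile scaling (0.116) or median centring (0.127), and the Delta47 KO1 call without KO1 replicate 3 (0.0612). The difference between the lines was not tested, since the tables were normalized separately.

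Clones of one line differed from each other in limma's direct test of KO2 against KO1. In OPM2 the log2 difference was 0.81 for CD38, 0.46 for GPRC5D and −0.31 for ITGB7; the calls of GPRC5D and ITGB7 were lost without KO2 replicate 1 or 2 (adjusted p = 0.0531 and 0.0558 for ITGB7). In Delta47 it was −1.31 for GPRC5D, −1.18 for SLAMF7, −0.66 for LY9, −0.34 for SDC1, −0.19 for CD38, −0.14 for TNFRSF17 and 0.18 for CD46. With the length trend removed, TNFRSF17 (−0.04, adjusted p = 0.58) and CD46 (0.12, adjusted p = 0.0746) were not called.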

How the results depend on the processing

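In OPM2 the number of targets called depended on the libraries that stand apart. With both left out it was 9 in KO1 against WT, 6 in KO1EV against KO1, 5 in KO1R against KO1EV, 6 in KO1R against KO1, 7 in KO1R against WT and 7 in KO2 against KO1. With library weights it was 9 in KO1 against WT, 8 in KO2 against WT, 6 in KO1EV against KO1, 6 in KO1R against KO1EV, 6 in KO1R against KO1, 7 in KO1R against WT and 7 in KO2 against KO1. When each fit held just its own pair of groups it was 9 in KO1 against WT, 0 in KO2 against WT by limma (4 at an unadjusted p below 0.05), 6 in KO1R against KO1, 6 in KO1R against WT and 1 in KO2 against KO1. The share called over all genes moved too. Over these 7 comparisons it was 26.4% to 67.7% with both libraries left out, 42.4% to 73.3% with weights, and 3.78% to 54.4% in fits of a pair, against 4.95% to 29.9% in the fit over all groups. Leaving out 1 library at a time gave 2 to 8 in KO1 against WT, 1 to 2 in KO1EV against KO1, 1 to 4 in KO1R against KO1EV, 2 to 6 in KO1R against KO1, 1 to 4 in KO1R against WT and 1 to 6 in KO2 against KO1. The share over all genes is not given for these fits, so their counts cannot be set against it. The highest counts arose without KO2 replicate 3. Directions reversed for LY9 in KO2 against WT (0.36 with both libraries left out and 0.36 with library weights), for TNFRSF17 in KO2 against WT (0.12 with weights), and for SLAMF7 in KO2 against KO1 (0.28 with both left out, 0.26 with weights, and −0.27 to 0.28 with 1 library left out). In Delta47 the counts stayed within 1.5 times under every alternative run, and SDC1 in KO2R against KO2 reversed under quantile scaling (−0.16); the cause was not tested. With the replicate block, 3 targets were called in KO1, 4 in KO2 and 3 in KO1R against WT of OPM2. Of all genes, 25.5%, 15.4% and 15.8% were called there. In Delta47, 8 were called in KO2 and 7 in KO1 against WT, beside 42.7% and 51.9% of all genes. LY9 was newly called in OPM2 KO1 against WT (adjusted p = 0.0382). Deviations of same-numbered libraries from their group means correlated between −0.20 and 0.75 in OPM2 and between −0.22 and 0.20 in Delta47. For libraries of different number it was −0.74 to 0.62 in OPM2 and −0.28 to 0.29 in Delta47. Whether the numbers mark shared batches was not tested.

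Over all genes in OPM2 KO1 against WT, 2187 were called, and 6068 without the libraries that stand apart. The depth is unknown, so FCRL5 in both lines and ITGB7 in Delta47 cannot be read. The removal of the length trend and the look at neighbouring genes were chosen after results of these data were known.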
